A study of Homo sapiens with 34 samples.

Results

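The neurotrophins and their receptors were followed as 6 of the 19970 protein-coding genes on chromosomes 1 to 22 and X, and the rule that took them, their place in neurotrophin signalling, uses no value of these data, although earlier results of the same data were known when they were chosen. They are the ligand genes BDNF and NTF3, the receptor tyrosine kinase genes NTRK2 (TrkB) and NTRK3 (TrkC), NGFR (the p75 neurotrophin receptor) and SORT1 (sortilin). Histone marks were mapped by ChIP-seq in KELLY cells, a MYCN-amplified human neuroblastoma cell line. All of these cells were of a stable line with an integrated vector, from which doxycycline switches on a hairpin RNA that targets RUNX1T1, a transcriptional co-repressor. Each of 5 marks was measured in 3 libraries from cells given DMSO (hairpin not induced) and 3 libraries from cells given doxycycline (hairpin induced) for 72 h. The 4 input libraries served as background for peak calling only, and RUNX1T1 itself was not measured by any of these libraries, so the knockdown could not be checked here.

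Neurotrophins are secreted growth factors that keep developing sensory and sympathetic neurons alive and shape their connections. Mature BDNF signals through TrkB and mature neurotrophin-3 mainly through TrkC, while p75 binds all neurotrophins and, together with sortilin, binds their uncleaved pro-forms. Neuroblastoma arises from the sympathoadrenal lineage of the neural crest, in which these receptors are used at successive stages. As background on the marks, H3K4me3 lies at start sites, and H3K4me2 and H3K4me1 at start sites and enhancers. H3K27ac lies at active start sites and enhancers, and H3K27me3 over genes held silent by Polycomb. A start site with both H3K4me3 and H3K27me3 is often called bivalent, although lists from many cells cannot show that both marks sit on the same chromosomes.

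On hg38, BDNF lies on the minus strand of chromosome 11 (27654893 to 27722058) with 11 annotated start sites, and NTF3 on the plus strand of chromosome 12 (5432108 to 5521536). NTRK2 spans chromosome 9 from 84668375 to 85095751 on the plus strand. NTRK3 spans chromosome 15 from 87859751 to 88256791 on the minus strand. NGFR is the shortest, on the plus strand of chromosome 17 from 49495293 to 49515008. SORT1 lies on the minus strand of chromosome 1 from 109309568 to 109397918. Annotated antisense genes start close to BDNF, NTRK3 and NGFR, and peaks carry no strand, so a peak at such a start cannot be assigned to either gene.

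The measurement was a list of peaks per library, in which each peak had a width and a fold enrichment over input. Since the scale of fold enrichment differed between libraries, each peak was given its percentile within its own list, where 100 is the most enriched peak. A gene's value in a library is the highest percentile among peaks within 1 kb of any of its start sites, or 0 where no peak was called. A listed peak is not equally strict in every mark, since the smallest −log10 q of a list was 3.09 to 3.54 for H3K4me2 and H3K4me3 and 1.00 to 1.02 for the other 3 marks. Depth at calling was 71.9 to 81.1 M reads for DMSO and 57.0 to 63.4 M for doxycycline. The ranges did not meet, so for every difference below the part of depth and that of treatment cannot be told apart. For H3K27me3, 3 libraries had fragment lengths estimated at 256 to 280 bp (DMSO 1, doxycycline 1 and 2) and 3 at 105 to 112 bp (DMSO 2 and 3, doxycycline 3), and in the latter wide domains were listed as many short peaks. The label was checked on 6 noradrenergic neuroblastoma genes (PHOX2A, HAND2, GATA3, ISL1, TH and DBH), all of which had an H3K27ac start site peak in every library. Of 4 immune, 5 mesenchymal, 4 Schwann cell and 3 epithelial genes, 0, 1, 2 and 1 had one in all 3 DMSO libraries.

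At their start sites the genes fell into sets that were nearly the same in both treatments. H3K4me1, H3K4me2 and H3K4me3 peaks were present at all 6 genes in all 6 libraries of each mark. For comparison, 72.6% of all protein-coding genes had an H3K4me3 peak in all 3 DMSO libraries and 72.3% in all 3 doxycycline libraries. These shares were 66.3% and 66.1% for H3K4me1, and 72.3% and 73.8% for H3K4me2. H3K27ac was called in every library at BDNF, NTRK3 and SORT1, and in none at NTF3 and NTRK2. Of all genes, 65.8% had an H3K27ac peak in all 3 DMSO libraries and 65.2% in all 3 doxycycline libraries. H3K27me3 was called in every library at NTF3, NTRK2, NTRK3 and NGFR, against 20.9% of all genes in DMSO and 23.2% in doxycycline. Both H3K4me3 and H3K27me3 were therefore called in all 3 DMSO libraries at 4 of the 6 genes, where 11.1% of all genes had both. SORT1 was the 1 gene with H3K4me3 and H3K27ac but no H3K27me3 peak at a start site in any library, a combination found at 53.6% of all genes in DMSO. NGFR and BDNF were the 2 genes whose presence counts differed between treatments, as given below.

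**Figure D1:**
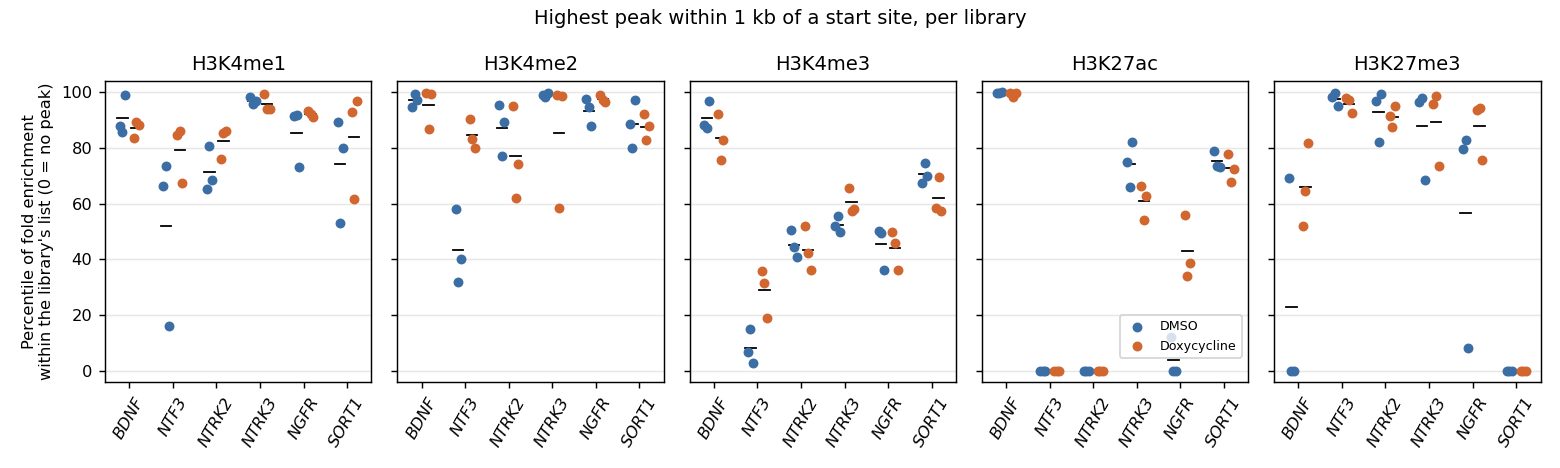
Percentile of fold enrichment of the highest peak within 1 kb of a start site (y axis, 0 where no peak was called) for each of the 6 genes (x axis) and each mark (panel). Blue points are the 3 DMSO libraries, orange points the 3 doxycycline libraries and black lines their means; NTF3 sits lowest in H3K4me3, and NTF3 and NTRK2 are at 0 in H3K27ac.

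Under the strictest reading, a peak in 3 of 3 libraries of one treatment and 0 of 3 of the other, 0 of the 6 genes differed at their start sites in any mark. Across the genome this held for 0.383% of genes with a start site peak in any list for H3K4me1, 0.0374% for H3K4me2, 0.174% for H3K4me3, 0.462% for H3K27ac and 0.535% for H3K27me3. Percentiles that did not overlap between treatments were found in 4 of the 30 pairs of gene and mark: NTF3 in H3K4me2, NTF3 and NTRK3 in H3K4me3, and NGFR in H3K27ac. All 4 were higher in doxycycline. The background share of genes higher in all doxycycline libraries was 6.04% for H3K4me1, 5.59% for H3K4me2, 7.53% for H3K4me3, 6.22% for H3K27ac and 3.45% for H3K27me3. In the other direction, 0 of the 30 pairs were higher in all DMSO libraries, against 6.84%, 4.77%, 9.14%, 11.8% and 2.48% of genes in the same order of marks. All of these shares are over genes with a start site peak in any list of the mark. NTF3 and NTRK2 in H3K27ac and SORT1 in H3K27me3 had no peak in any library, so these pairs could not differ. By same-numbered pairs, read as a replicate block, the percentile was higher in doxycycline in all 3 pairs at 4 of the 6 genes in H3K4me1 (NTF3, NTRK2, NGFR and SORT1), 2 in H3K4me2, 2 in H3K4me3 and 1 in H3K27ac, against 14.5%, 15.4%, 16.4% and 15.5% of genes with a start site peak in any list. It was higher in DMSO in all 3 pairs at 0 genes in H3K4me1, 2 in H3K4me2, 1 in H3K4me3 and 3 in H3K27ac, against 16.2%, 15.2%, 21.8% and 26.5%. With 3 libraries against 3, the exact two-sided permutation test has 20 assignments and cannot give a p below 0.1, so none of these differences could pass 0.05. The labels do not say whether replicates came from separate cultures, so each p measures the spread between these libraries, which may be technical.

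BDNF, the ligand of TrkB, carried the strongest H3K27ac of the 6 genes. Its highest H3K27ac start site peak lay at percentiles 99.9, 99.6 and 99.9 in DMSO and 99.9, 98.4 and 99.8 in doxycycline (exact permutation p = 0.5). That placed it at ranks 73 to 240 of 55153 to 71603 peaks in the DMSO lists. The fold enrichment over input of this peak was 15.8, 12.6 and 9.79 in DMSO and 22.4, 13.2 and 11.3 in doxycycline. The ranges overlapped. In each same-numbered pair the fold enrichment was higher in doxycycline and the percentile was lower.

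The 11 BDNF start sites formed 4 groups, taken as runs of start sites no more than 1 kb apart and numbered from upstream. Groups 1 and 2 began 21.6 and 20.3 kb upstream of the canonical start site, group 3 held it, and group 4 was a single start site 40.8 kb downstream. The RefSeq promoter sequences (GRCh38.p14; 250 bases before to 50 after a start site) of 3 of these groups are shown because the groups differed in H3K4me3. CG dinucleotides, which are dense at most H3K4me3-marked start sites, are in capitals, and each sequence reads 5′ to 3′ on the minus strand.
BDNF group 2, chr11:27719517-27719816: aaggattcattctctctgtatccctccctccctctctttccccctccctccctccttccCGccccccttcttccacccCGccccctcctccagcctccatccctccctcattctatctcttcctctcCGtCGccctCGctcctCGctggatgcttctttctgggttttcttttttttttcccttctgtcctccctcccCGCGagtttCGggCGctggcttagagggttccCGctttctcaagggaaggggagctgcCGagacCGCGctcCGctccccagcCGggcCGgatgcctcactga
BDNF group 3, chr11:27701572-27701871: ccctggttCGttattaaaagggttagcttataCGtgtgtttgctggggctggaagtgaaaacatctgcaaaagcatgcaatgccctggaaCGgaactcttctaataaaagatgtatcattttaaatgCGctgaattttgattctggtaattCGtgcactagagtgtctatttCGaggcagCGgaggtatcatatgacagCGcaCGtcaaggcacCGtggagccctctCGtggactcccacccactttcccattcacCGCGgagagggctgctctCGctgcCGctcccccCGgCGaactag
BDNF group 4, chr11:27659609-27659908: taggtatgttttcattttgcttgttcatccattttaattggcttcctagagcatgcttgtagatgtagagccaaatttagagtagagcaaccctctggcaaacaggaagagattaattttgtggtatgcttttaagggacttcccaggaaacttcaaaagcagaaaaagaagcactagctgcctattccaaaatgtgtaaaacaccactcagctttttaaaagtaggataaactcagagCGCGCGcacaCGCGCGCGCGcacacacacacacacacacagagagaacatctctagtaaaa
The first and second of these held 17 CG dinucleotides each and the third held 8, all of them in a short repeat near its end. Group 2 had a further RefSeq promoter (27720730 to 27721029) with 6, fewer than group 4, and it had an H3K4me3 peak within 1 kb in all 6 libraries.

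The groups carried different marks. Group 4 had H3K4me1 and H3K27ac peaks in all 6 libraries and no H3K4me3 peak in any, while groups 1 to 3 had peaks of all of these marks. The top H3K27ac peak was the one at group 2, as its percentiles equal those given above for the gene. H3K27ac at group 3 was at percentiles 80.6, 68.9 and 74.6 in DMSO and 72.8, 50.2 and 66.4 in doxycycline, which overlap (exact permutation p = 0.2). H3K4me3 at group 3 was at percentiles 88.1, 75.3 and 96.8 in DMSO and 52.3, 60.6 and 48.9 in doxycycline, so the lowest DMSO value lay above the highest doxycycline value (exact permutation p = 0.1). The fold enrichment of that peak was 40.2, 38.5 and 32.4 against 23.04, 29.04 and 14.51. Its width went the other way, at 3451, 3518 and 3425 bp in DMSO and 3645, 3519 and 3573 bp in doxycycline, also without overlap (exact permutation p = 0.1). No share over all genes was computed for widths. H3K4me1 at group 3 was higher in doxycycline without overlap, at percentiles 49.0, 58.5 and 52.0 against 59.8, 71.2 and 67.8 (exact permutation p = 0.1). At group 2 the percentiles of H3K4me3 were 60.3, 87.3 and 69.4 in DMSO and 92.2, 75.8 and 82.7 in doxycycline, which overlap. Because the highest peak of the gene changed from group to group, this did not show in the value for the whole gene, 88.1, 87.3 and 96.8 against 92.2, 75.8 and 82.7. When all genes were read at the canonical start site alone, 9.31% were higher in all DMSO libraries and 7.55% in all doxycycline libraries, and BDNF group 3 is 1 of the former. The group was picked out after its values were seen.

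**Figure D2:**
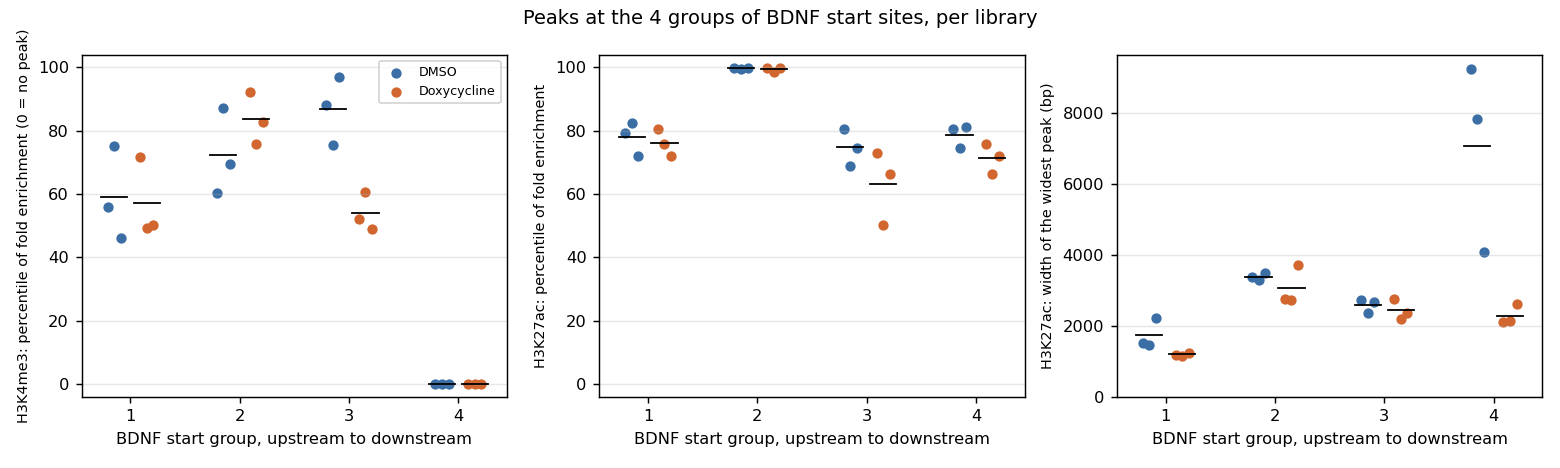
H3K4me3 percentile (left), H3K27ac percentile (middle) and width of the widest H3K27ac peak in bp (right) at each of the 4 groups of BDNF start sites (x axis, upstream to downstream), with points for the 3 DMSO (blue) and 3 doxycycline (orange) libraries and lines for means. Group 4 has no H3K4me3 peak, group 2 has the highest H3K27ac percentiles, and the group 3 H3K4me3 points of the treatments do not overlap.

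H3K27ac widths at BDNF did not overlap between treatments at groups 1 and 4 and overlapped at groups 2 and 3, while the percentiles overlapped at all 4. The share of all genes with widths that did not overlap was not computed in any mark. Whether narrower peaks in doxycycline were common across the lists is therefore not known, and the width differences are descriptions. At group 4 the widest H3K27ac peak measured 9251, 7847 and 4096 bp in DMSO and 2102, 2141 and 2607 bp in doxycycline (exact permutation p = 0.1). In the same libraries its fold enrichment was 4.81, 4.12 and 3.88 against 5.06, 3.86 and 3.82, and its percentiles overlapped (80.4, 74.5 and 81.1 against 75.9, 66.4 and 72.0). In the map of BDNF peaks the wide DMSO peaks at this place appear as shorter peaks in doxycycline. H3K27ac peaks in the whole gene numbered 6, 5 and 7 in DMSO and 6, 5 and 5 in doxycycline. Broad peak calling joins neighbouring enriched stretches into 1 peak, and the part of such joining in these widths was not tested. H3K4me1 widths at group 4 did not overlap either, at 3041, 2789 and 3322 bp against 2391, 1954 and 2657 bp (exact permutation p = 0.1). At the other groups H3K4me1 widths overlapped. At group 1 the H3K27ac widths were 1528, 1461 and 2225 bp against 1190, 1164 and 1230 bp, again without overlap. At group 2 they were 3377, 3283 and 3488 bp against 2757, 2725 and 3732 bp (exact permutation p = 0.4), and at group 3 they were 2738, 2374 and 2682 bp against 2747, 2191 and 2367 bp (exact permutation p = 0.6). H3K27me3 at BDNF was called at groups 1 and 2 only, once among the 3 DMSO libraries and in each of the 3 doxycycline libraries. Those peaks were 1517 bp wide in DMSO 1 and 1313, 1559 and 118 bp in doxycycline, with percentiles of 69.3, 0 and 0 against 52.1, 64.4 and 81.6 (exact permutation p = 0.3). Both DMSO libraries without the peak were of the short-fragment kind, as was the doxycycline library with the 118 bp peak, and the part of fragment length in this difference was not tested.

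NTF3, the gene of neurotrophin-3, carried the widest H3K27me3 of the 6 genes and the weakest H3K4me3. No H3K27ac peak was called in its body or within 50 kb in any library. Its main promoter and an internal one are shown, since of the pair only the first had peaks of the H3K4 marks, with CG dinucleotides in capitals (RefSeq, GRCh38.p14, plus strand).
NTF3 main start, chr12:5431858-5432157: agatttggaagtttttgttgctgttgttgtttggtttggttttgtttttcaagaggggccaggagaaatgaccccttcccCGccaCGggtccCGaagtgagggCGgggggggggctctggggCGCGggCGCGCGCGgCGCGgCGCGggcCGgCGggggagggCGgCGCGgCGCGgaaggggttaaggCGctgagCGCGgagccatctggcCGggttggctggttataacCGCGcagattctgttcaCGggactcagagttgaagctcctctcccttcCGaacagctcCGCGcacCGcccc
NTF3 internal start, chr12:5493882-5494181: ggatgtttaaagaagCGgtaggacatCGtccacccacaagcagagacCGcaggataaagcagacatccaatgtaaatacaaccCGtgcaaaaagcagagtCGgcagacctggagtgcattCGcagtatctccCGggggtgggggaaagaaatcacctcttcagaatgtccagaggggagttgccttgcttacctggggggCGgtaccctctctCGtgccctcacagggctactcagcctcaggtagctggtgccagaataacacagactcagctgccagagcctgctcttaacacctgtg
The main promoter held 32 CG dinucleotides, more than 75.4% of the promoters of all genes, and the internal one held 9.

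H3K27me3 covered the whole 89.4 kb NTF3 body in the 3 long-fragment libraries, as a single peak of 108, 125 and 183 kb in DMSO 1, doxycycline 1 and doxycycline 2. In the short-fragment libraries the same ground was split into 11, 25 and 22 peaks in DMSO 2, DMSO 3 and doxycycline 3, which covered 78.2, 68.0 and 73.3 kb. A body covered whole can show no further gain, so covered length could not compare the treatments among the 3 long-fragment libraries. The part of fragment length in these values was not tested. By percentile the start site peak stood at 98.2, 99.8 and 94.9 in DMSO and 98.1, 97.2 and 92.5 in doxycycline (exact permutation p = 0.5). By width, the doxycycline 2 peak ranked 35 among the 56926 peaks of its list. The domain ran on beyond the 3′ end of the gene in the map.

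**Figure D3:**
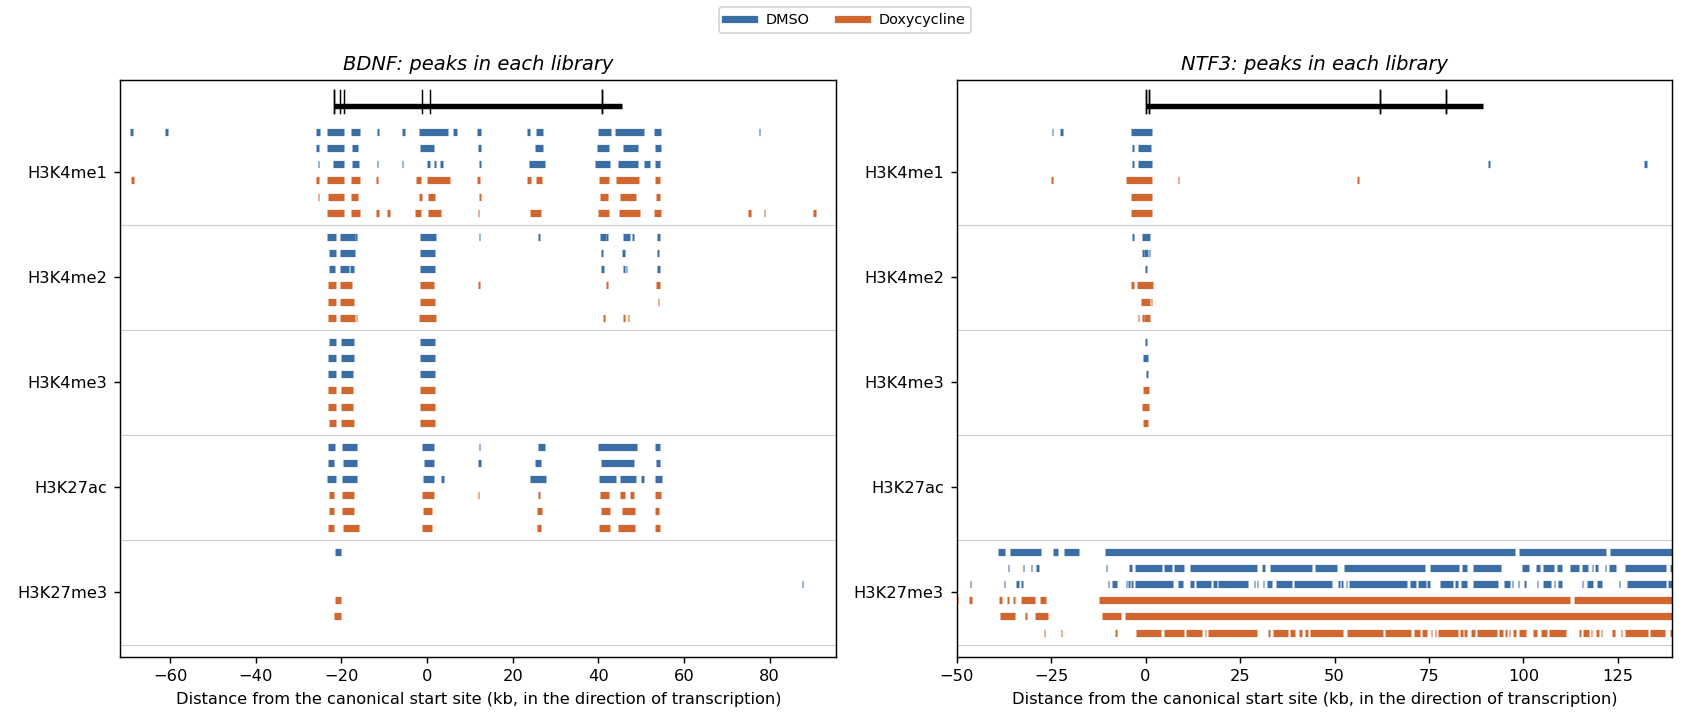
Peaks of the 5 marks in each library along BDNF (left) and NTF3 (right) and 50 kb on either side, by distance from the canonical start site in kb; within a mark the rows are DMSO 1 to 3 (blue) and then doxycycline 1 to 3 (orange). The black bar is the gene and vertical ticks are the ends of each start group. NTF3 lies within H3K27me3 in every library and shows no H3K27ac, and the wide BDNF H3K27ac peaks in the downstream part of the gene are shorter in doxycycline.

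At the NTF3 start site, H3K4me2 was at percentiles 58.1, 31.7 and 40.2 in DMSO and 90.5, 83.3 and 80.1 in doxycycline. The means were 43.3 ± 13.4 and 84.6 ± 5.29 (SD, n = 3 each), a difference of 41.3 points, and the treatments did not overlap (exact permutation p = 0.1). The fold enrichment of the peak was 5.87, 4.07 and 4.07 in DMSO and 21.1, 9.19 and 9.77 in doxycycline. H3K4me3 was at percentiles 6.91, 15.0 and 2.91 in DMSO and 35.9, 31.7 and 19.0 in doxycycline, a difference of 20.6 points (exact permutation p = 0.1). Its fold enrichment was 3.33, 4.14 and 2.91 against 10.1, 8.48 and 5.34, so even the doxycycline peaks were among the weaker H3K4me3 peaks of their lists. The H3K4me3 peak was 708, 1318 and 668 bp wide in DMSO and 1792, 1893 and 1285 bp in doxycycline. H3K4me1 moved less evenly, at 66.3, 73.7 and 16.1 against 84.6, 86.0 and 67.3 (exact permutation p = 0.2). The differences in H3K4me2 and H3K4me3 kept their direction and stayed free of overlap in all 11 alternative readings, including lists cut to equal length and each library left out. The H3K4me3 lists held 24274 to 26514 peaks in DMSO and 23801 to 26592 in doxycycline.

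NTRK2, the gene of TrkB, had H3K4me1, H3K4me2, H3K4me3 and H3K27me3 at its main start sites in every library and no H3K27ac there. Its promoter with the most CG dinucleotides (38, more than 87.2% of all promoters) is shown because both H3K4me3 and H3K27me3 lay over it, with CG in capitals (RefSeq, GRCh38.p14, plus strand).
NTRK2, chr9:84669783-84670082: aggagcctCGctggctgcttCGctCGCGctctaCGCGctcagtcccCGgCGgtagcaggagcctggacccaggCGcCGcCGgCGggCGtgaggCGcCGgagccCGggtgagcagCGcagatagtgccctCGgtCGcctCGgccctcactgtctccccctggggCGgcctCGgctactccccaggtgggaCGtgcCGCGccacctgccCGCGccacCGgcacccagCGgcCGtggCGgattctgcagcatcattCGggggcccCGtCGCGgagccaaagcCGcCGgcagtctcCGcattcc
H3K4me3 was at percentiles 50.4, 44.5 and 40.7 in DMSO and 51.9, 42.4 and 36.2 in doxycycline (exact permutation p = 0.8). The peak was 2993, 2908 and 3004 bp wide in DMSO and 2969, 3029 and 2594 bp in doxycycline. H3K27me3 was at 96.7, 82.3 and 99.3 against 91.3, 87.4 and 95.0 (exact permutation p = 0.8), with widths of 998 to 2578 bp in DMSO and 1241 to 1968 bp in doxycycline. Unlike the domain over NTF3, it did not extend through the gene, of which peaks covered 0.998 to 2.58 kb of 427 kb. The H3K27ac peaks of NTRK2 were confined to 1 intragenic region, called in replicates 1 and 2 of both treatments. In no mark did the treatments stop overlapping at NTRK2 start sites.

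NTRK3, the gene of TrkC, joined a main start site with H3K4me3 and H3K27me3 to a gene body with many H3K4me1 and H3K27ac regions. The promoter at the main start site held 30 CG dinucleotides, shown in capitals in the sequence (RefSeq, GRCh38.p14, minus strand).
NTRK3, chr15:88256690-88256989: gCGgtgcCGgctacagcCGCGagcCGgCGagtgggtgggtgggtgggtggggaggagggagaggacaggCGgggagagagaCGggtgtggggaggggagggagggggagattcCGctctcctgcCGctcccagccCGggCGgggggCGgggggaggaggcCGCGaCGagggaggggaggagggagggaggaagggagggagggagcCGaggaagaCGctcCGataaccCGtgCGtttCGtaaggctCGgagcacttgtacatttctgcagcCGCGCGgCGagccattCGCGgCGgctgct
At this start H3K4me3 was at percentiles 51.9, 55.6 and 49.9 in DMSO and 65.8, 57.5 and 58.1 in doxycycline (exact permutation p = 0.1). The means were 52.5 ± 2.88 and 60.5 ± 4.60 (SD, n = 3 each), and the highest DMSO and lowest doxycycline values were close to each other. Ranked by −log10 q in place of fold enrichment, the difference was 2.34 points and the treatments overlapped, while the other 10 alternative readings kept them apart. Fold enrichment, which did overlap, was 19.8, 24.7 and 14.2 against 31.3, 27.1 and 17.3. H3K27me3 stood at 96.6, 98.0 and 68.6 against 95.9, 98.7 and 73.7 (exact permutation p = 0.7), with the lowest value of each treatment in replicate 3. Replicate 3 of each treatment and DMSO 2, which had the highest DMSO value, were short-fragment libraries. The part of fragment length in these values was not tested. No H3K27ac peak was called at the main start, and the H3K27ac value of the gene came from internal start sites. At the start 50.8 kb downstream H3K27ac was at 72.8, 66.0 and 57.7 in DMSO and 27.9, 38.1 and 0 in doxycycline (exact permutation p = 0.1), and its peaks were 2168, 3364 and 1519 bp wide against 1088 and 1046 bp. At the pair of start sites 130 kb downstream H3K27ac was called in all 6 libraries, at 74.9, 54.7 and 82.0 against 66.3, 54.2 and 62.9 (exact permutation p = 0.3). Its widths there did not overlap, at 1530, 1798 and 1487 bp against 1406, 1385 and 1130 bp (exact permutation p = 0.1). H3K4me1 peaks were also wider in DMSO without overlap at the main start and at both of these internal places (exact permutation p = 0.1 each). At an internal start 316 kb downstream they overlapped (exact permutation p = 0.4). For these H3K27ac and H3K4me1 widths too, no share over all genes was computed. The internal start sites were singled out after their values were seen.

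Away from start sites, the NTRK3 body held 41, 32 and 36 H3K4me1 peaks in the DMSO libraries and 41, 29 and 33 in the doxycycline libraries. Of these, 14, 8 and 7 overlapped an H3K27ac peak of the same treatment and number in DMSO, and 10, 7 and 3 in doxycycline. None overlapped an H3K27me3 peak. When the 6 lists of a mark were merged, 18 of 54 such H3K4me1 regions were present in all 6 libraries, but only 2 of 25 H3K27ac regions. Both of the latter were intronic, 97.6 kb (88157742 to 88160448) and 104.3 kb (88150376 to 88154407) downstream of the canonical start. H3K27ac peaks of the body away from start sites numbered 16, 10 and 9 in DMSO and 10, 7 and 3 in doxycycline, the fewest in replicate 3 of each treatment.

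**Figure D4:**
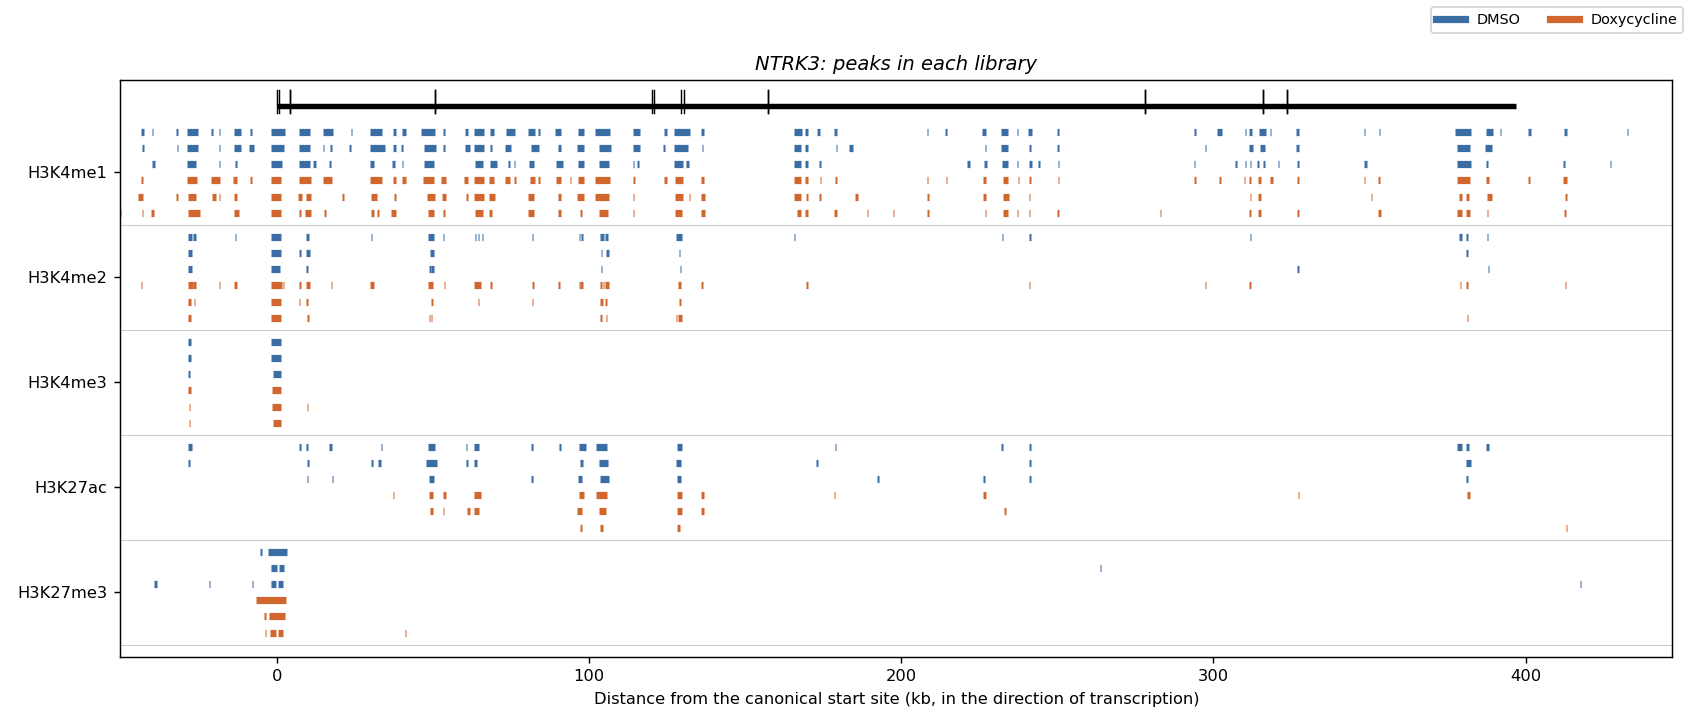
Peaks of the 5 marks in each library along NTRK3 and 50 kb on either side, by distance from the canonical start site in kb; rows within a mark are DMSO 1 to 3 (blue) and then doxycycline 1 to 3 (orange). The black bar is the gene and ticks are start groups. H3K4me3 and H3K27me3 lie at the main start, while H3K4me1 and H3K27ac regions are spread over the body.

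NGFR, the p75 receptor gene, had H3K4me1, H3K4me2, H3K4me3 and H3K27me3 at its start in every library. RefSeq promoter sequences were matched for 5 of the 6 genes, NGFR being the other. Its H3K4me1 peak was the widest start site H3K4me1 peak of the 6 genes in each library, 8137, 8183 and 6594 bp in DMSO and 8179, 7912 and 6876 bp in doxycycline. H3K4me3 hardly differed, at percentiles 50.2, 49.7 and 36.2 against 49.9, 46.0 and 36.3 (exact permutation p = 0.8). H3K27ac at the start was called in 1 of 3 DMSO libraries and 3 of 3 doxycycline libraries, at percentiles 12.1, 0 and 0 against 56.1, 34.2 and 38.6 (exact permutation p = 0.1). The peaks were small, with a fold enrichment of 2.06 and a width of 595 bp in DMSO 1 and 3.00, 2.47 and 2.54 with 969, 742 and 893 bp in doxycycline. With peaks of q 1e-10 or less, none of these peaks remained in either treatment. H3K27me3 at the NGFR start was at 79.6, 82.8 and 8.10 in DMSO and 93.5, 94.2 and 75.8 in doxycycline (exact permutation p = 0.3). The lowest DMSO value (DMSO 3) and the highest (DMSO 2) both came from short-fragment libraries, as did the lowest doxycycline value (doxycycline 3). The part of fragment length in this difference was not tested. A further H3K27ac region over the 3′ end of the gene (49511761 to 49517535), touching a coding exon, was present in all 6 libraries.

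SORT1, the gene of the sorting receptor sortilin, had H3K4me3 and H3K27ac at its main start in every library and no H3K27me3 at a start site. H3K4me3 was at percentiles 67.4, 74.8 and 70.0 in DMSO and 58.6, 69.7 and 57.3 in doxycycline (exact permutation p = 0.2), which overlap. H3K27ac was at 78.9, 73.5 and 73.3 against 77.9, 67.7 and 72.6 (exact permutation p = 0.4). Its H3K4me1 start site peak was 1933, 3197 and 3936 bp wide in DMSO and 1198, 1107 and 1141 bp in doxycycline (exact permutation p = 0.1), while the percentiles overlapped (89.4, 53.0 and 80.0 against 93.0, 61.6 and 96.7). The share of all genes with such a width difference was not computed. Most H3K27ac around SORT1 lay outside the gene, where 5 of 9 merged regions were present in all 6 libraries, 4 of them at or near starts of CELSR2, PSRC1, MYBPHL or PSMA5. The 50 kb on the side of its promoter also reached an H3K27me3 region of 35572 bp over the start of SYPL2, present in all 6 libraries.

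Peaks of the 6 libraries of a mark were then merged into regions over the 6 genes and 50 kb on either side, and a region was counted as lost when all 3 DMSO lists had it and no doxycycline list did, and as gained in the reverse case. In H3K27ac 2 of 64 regions were lost, against 2.7% of all merged H3K27ac regions. In H3K4me1 1 of 140 was lost, against 1.45% of all. No region was lost among 93 in H3K4me2 (background 0.291%), 16 in H3K4me3 (0.893%) or 39 in H3K27me3 (0.0386%). None was gained in any mark, against 0.313% of all regions in H3K4me1, 0.18% in H3K4me2, 0.45% in H3K4me3, 0.6% in H3K27ac and 0.42% in H3K27me3. The shares at the 6 genes were thus near those of the genome.

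Both lost H3K27ac regions were intronic in NTRK3. The first (chromosome 15, 88246359 to 88247328, 9.90 kb downstream of the canonical start) had fold enrichments of 2.57, 3.13 and 2.12 in DMSO. The second (88015043 to 88015843, 241 kb downstream) had fold enrichments of 2.64, 3.14 and 2.27. Their percentiles in the DMSO lists lay between 19.5 and 63.6, and no doxycycline peak of the mark lay within 5 kb of either. The lost H3K4me1 region was intronic in SORT1 (chromosome 1, 109318617 to 109319674), with fold enrichments of 2.32, 2.22 and 2.05 and percentiles of 18.7 to 32.8. All 3 were short, at 801 to 1058 bp, and their fold enrichments were at most 3.14.

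Covered length, the part of the gene body in kb that lay under peaks of a mark, was compared across all genes with limma on log2(covered kb + 0.1), after leaving out genes with a mean under 0.2 kb. At an adjusted p of 0.05 it called 137 of 14505 genes in H3K27ac (0.945%), 117 of them lower in doxycycline. In the other 4 marks it called 0 genes (0%), and 1110, 148, 920 and 72 genes had an unadjusted p under 0.05 in H3K4me1, H3K4me2, H3K4me3 and H3K27me3. With the replicate number as a block the H3K27ac count was 0, and leaving out each library in turn gave 0 to 35, with 0 when DMSO replicate 1 was left out. None of the 6 genes was called in any mark.

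**Figure D5:**
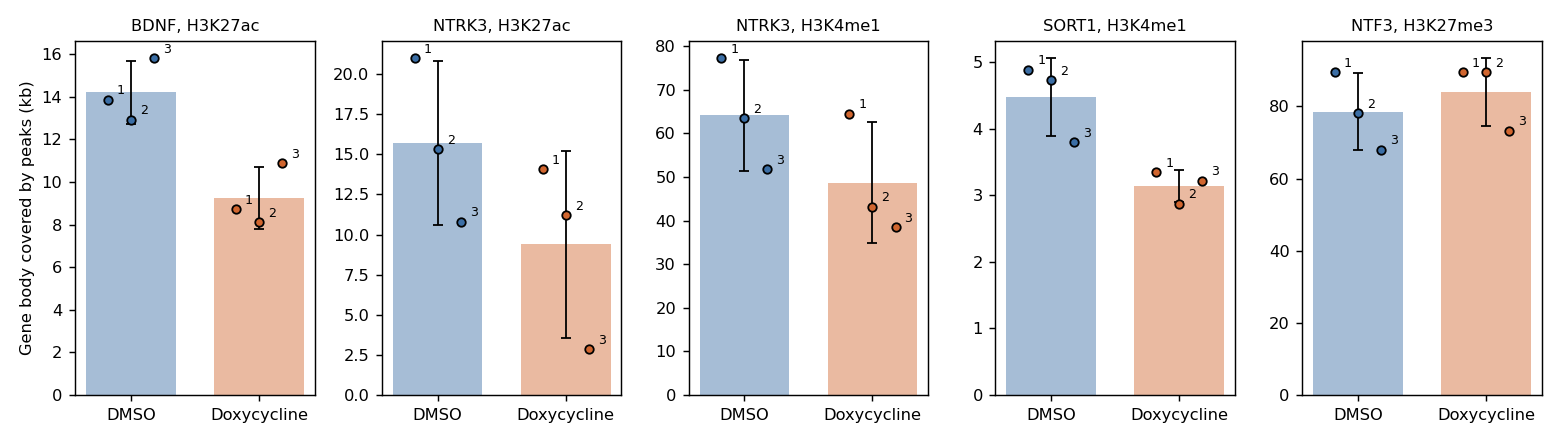
Length of gene body covered by peaks in kb (y axis, from 0) for 5 pairs of gene and mark in DMSO (blue) and doxycycline (orange). Bars are means of 3 libraries, error bars SD, and points the libraries with their replicate numbers. Of the 5 pairs shown, only BDNF and SORT1 have all DMSO points above all doxycycline points.

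The largest of the members' differences by unadjusted p was that of H3K27ac over BDNF. Covered length was 13.9, 12.9 and 15.8 kb in DMSO and 8.73, 8.12 and 10.9 kb in doxycycline, so the treatments did not overlap. On the log2 scale it fell by 0.62 (SE 0.164), and it did not pass adjustment over all genes (limma adjusted p = 0.224; 0.122 to 0.536 over the alternatives). SORT1 H3K4me1 covered 4.89, 4.73 and 3.80 kb against 3.34, 2.88 and 3.22 kb, a log2 difference of -0.49 (SE 0.182, limma adjusted p = 0.736). NTRK3 H3K27ac covered 21.0, 15.3 and 10.8 kb against 14.1, 11.2 and 2.87 kb, a log2 difference of -0.97 (SE 0.663, limma adjusted p = 0.667), and NTRK3 H3K4me1 77.3, 63.6 and 51.8 kb against 64.5, 43.2 and 38.4 kb (log2 -0.42, SE 0.252, limma adjusted p = 0.774). Every doxycycline library of NTRK3 lay below the DMSO library of the same number in both marks. The spread between numbers, which this unpaired fit does not take out, was as wide as the difference. Over the alternatives, which include the replicate block, the lowest limma adjusted p was 0.324 for NTRK3 H3K27ac and 0.130 for NTRK3 H3K4me1. In the other direction, NTF3 H3K4me2 covered 1.17, 1.00 and 0.43 kb against 1.88, 1.54 and 1.23 kb (log2 0.85, SE 0.367, limma adjusted p = 1). These H3K4me2 lengths did not overlap. Nor did those of H3K4me3 over BDNF (6.61, 6.68 and 6.52 kb against 6.96, 6.84 and 6.71 kb) and SORT1 (1.12, 1.15 and 1.10 kb against 1.34, 1.32 and 1.16 kb), also higher in doxycycline. No share of all genes whose covered lengths did not overlap was computed in any mark. NTF3 H3K27me3 differed by 0.10 on the log2 scale (SE 0.204, limma adjusted p = 0.943), where the median of all genes was 0.41 higher in doxycycline. Its body was already covered whole in 3 of the 6 libraries, so this value could not rise with that median.

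Other genes of the pathway were read from lists of their roles, as counts of genes whose percentiles did not overlap. The shares over all genes were 7.53% higher in doxycycline and 9.14% higher in DMSO for H3K4me3, and 6.22% and 11.8% for H3K27ac. They were 6.04% and 6.84% for H3K4me1, 5.59% and 4.77% for H3K4me2, and 3.45% and 2.48% for H3K27me3. Among 6 genes of ligand and pro-form processing, H3K4me3 was higher in all DMSO libraries at 3 (FURIN, PCSK5 and PCSK6, proprotein convertases) and in all doxycycline libraries at 0, and in H3K27ac FURIN alone differed, being higher in DMSO. FURIN, which can cleave pro-neurotrophins, stood in H3K4me3 at 94.3, 88.2 and 73.0 in DMSO and 67.0, 51.6 and 68.2 in doxycycline, and in H3K27ac at 94.2, 87.8 and 89.6 against 87.7, 79.2 and 83.7. Among 14 Trk adaptors, H3K4me3 was higher in all doxycycline libraries at 4 (SHC2, FRS2, GAB1 and GRB2) and in all DMSO libraries at 0. In H3K27ac they went both ways, with SH2B3 and KIDINS220 higher in doxycycline and SHC1 and RAPGEF1 higher in DMSO. In H3K4me2 GAB1 and GRB2 were higher in DMSO, opposite to their H3K4me3. FRS2, a docking protein of Trk receptors, stood in H3K4me3 at 81.6, 79.6 and 70.0 in DMSO and 95.4, 96.7 and 91.4 in doxycycline. Among 6 genes of the sortilin family and co-receptors, 0 differed without overlap in H3K4me3, RTN4R was higher in doxycycline and SORCS1 in DMSO in H3K27ac, and SORCS3 was higher in DMSO in H3K27me3. Among 8 p75 adaptors, RIPK2 was higher in doxycycline in H3K4me2, while BEX1 (H3K4me3), IRAK1 (H3K4me1) and ARHGDIA (H3K27ac) were higher in DMSO. In the marks not named here, 0 genes of these lists differed without overlap. With lists this short and chosen with earlier results known, these counts are descriptions. None of the 34 genes gained or lost a start site peak in all libraries in any mark. Among the marker genes HAND2 did, with an H3K4me2 start site peak in 0 of 3 DMSO and 3 of 3 doxycycline libraries (percentiles 74.5, 10.1 and 28.3). Of genes with a start site peak in any H3K4me2 list, 0.0374% separated the treatments in this way, in either direction. In H3K27ac HAND2 went the other way, at percentiles 99.99, 99.97 and 99.93 in DMSO and 99.90, 99.84 and 99.65 in doxycycline, without overlap. HAND2 and the pathway genes of this paragraph were named after their values were seen.

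Genes with the most similar pattern were found by the mean absolute difference of start site percentiles over all 30 libraries. The 2 nearest to BDNF were AUTS2 and RAPGEF2, at 8.62 and 8.83 points, and those nearest to NTF3 were CACNG2 and ANKRD34C, at 5.78 and 5.98. For NTRK2 they were CYP27C1 and C4orf19, and for NTRK3 GLI1 and NDUFA4L2. NGFR was nearest to CAPN12 and PYY, and SORT1 to SORBS2 and PDE3A. Between members the smallest difference was that of NTRK2 and NGFR, at 14.9 points, followed by NTF3 and NTRK2 at 15.0. The largest was that of BDNF and NTF3, the 2 ligand genes, at 55.3 points. The percentiles of all 30 libraries enter with the same weight, so these distances mostly rank genes by which marks are present.

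The promoter sequences were set against the presence of H3K4me3 alone. Of the 14 RefSeq promoters of the 5 matched genes, 9 held 10 or more CG dinucleotides, and all 9 had an H3K4me3 peak within 1 kb of the start site in all 6 libraries. Of the 5 with fewer, 1 did. Over 21548 promoters of protein-coding genes these shares were 89.1% and 18.2%, so the 14 followed the general relation. Windows of 1 gene overlap the same peaks, which makes them fewer independent cases than 14. The letters CGTCA or TGACG (the core of a cAMP response element and its reverse complement, searched as both) were found in 2 of the 14, the BDNF group 3 promoter and 1 NTRK2 promoter, against 28.0% of all.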

How the data were processed

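ChIP-seq of H3K4me1, H3K4me2, H3K4me3, H3K27ac and H3K27me3 in KELLY cells gave 30 peak lists (3 per mark and treatment). Of 34 samples, 4 were inputs, which have no list of their own here. Each sample's group and number come from its title.

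The authors aligned reads to hg38 with Bowtie2 (single-end per the labels, with paired-end mode off in the file headers, although the study's methods call the libraries paired-end), kept reads of mapping quality 30 or more with SAMtools, and called peaks per library against input with MACS2 2.1.1.20160309. Per the file headers, the larger of ChIP and input was scaled to the smaller, H3K4me1, H3K27ac and H3K27me3 were called in broad mode and the other marks in narrow mode with a stricter threshold, and replicate 3 of each treatment used an input with the same read total as replicate 1. For each peak the deposited columns hold pileup (a signal), −log10 p and −log10 q, fold enrichment over input (a ratio), start, end and length. Counts of reads per region were not used here, so shares carry no counting interval.

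Members and gene lists were chosen with earlier results of these data known. Start sites came from GENCODE 44. Presence, percentile and width were read within 1 kb of any start site, compared by the exact two-sided permutation test over libraries. Covered gene body length was fitted with limma 3.58.1 (R 4.3.3, trend) on log2(kb + 0.1), with Benjamini-Hochberg adjustment over all genes at 0.05. The interval, permutation and limma code was tested on simulated data. By the naming rule the text gives all 6 members in every mark, up to 2 separating regions per member and direction, pathway genes that separate the treatments (there were 0), and the 2 nearest genes per member. Other names are marked where given. Some genes of the noradrenergic marker list are not reported here.

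Same-numbered libraries of the treatments deviated together for H3K4me1 (correlation across genes 0.386, 0.321 and 0.129 for numbers 1 to 3), H3K4me2 (0.454, 0.235, 0.148), H3K4me3 (0.304, 0.300, 0.513) and H3K27ac (0.282, 0.110, 0.372), but not for every number of H3K27me3 (0.499, 0.036, 0.471). The pairing rests on these data, as the labels give only the number. Promoters came from RefSeq (GRCh38.p14), and their letters matched hg38 at the printed positions. Alternatives were other windows, thresholds, list lengths, pseudocounts and filters, a replicate block, and each library left out.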

Additional observations from a re-analysis of the deposited data

How the results depend on the processing

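The counts of genes with a start site peak in all 3 libraries fell at a q of 1e-10 or less, to 0 in DMSO and 1 in doxycycline for H3K4me1, to 2 in doxycycline for H3K27ac and to 0 in both treatments for H3K27me3. For H3K27ac in doxycycline the count was also 2 when peaks had to cover 50% of the window. Without one library, the number of genes separating the treatments at a start site ranged from 0 to 1 in H3K27ac (NGFR, when DMSO replicate 1 was left out) and from 0 to 1 in H3K27me3.

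Non-overlapping start site percentiles were the least settled. Higher in doxycycline, they numbered 1 in H3K4me1, 1 in H3K4me3 and 1 in H3K27me3 by the percentile of −log10 q, 2 in H3K4me2 with equal list length and 0 in H3K27ac at a q of 1e-10 or less. Higher in DMSO, they numbered 1 in H3K4me3 at the canonical start site alone and 1 in H3K27ac with equal list length or by the percentile of −log10 q. Read as a replicate block, with the same sign in all 3 same-numbered pairs, 4 genes were higher in doxycycline in H3K4me1 and 2 in H3K4me2. The shares of all genes were 14.5% and 15.4%. Higher in DMSO were 2 in H3K4me2, 1 in H3K4me3 and 3 in H3K27ac, against 15.2%, 21.8% and 26.5%. In H3K27me3 the count was 1 in each direction, and its share over all genes was not computed. Apart from H3K4me3 at the canonical start site, shares over all genes or regions were not computed for the member counts under other readings in this section. Those counts are descriptions. With each library left out in turn, counts higher in doxycycline ranged from 0 to 2 in H3K4me1, 1 to 2 in H3K4me2 and 0 to 1 in H3K27me3, and counts higher in DMSO from 0 to 2 in H3K27ac and from 0 to 1 in the other 4 marks.

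Lost regions at the 6 genes numbered 0 in H3K4me1 at a q of 0.001 or less, and 2 in H3K4me1 and 1 in H3K4me2 with equal list length. Leaving out a library gave 1 to 3 lost in H3K4me1, 0 to 2 in H3K4me2 and 2 to 4 in H3K27ac, and gained regions of 0 to 3 in H3K27ac and 0 to 1 in H3K4me1, H3K4me2 and H3K27me3.

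Genes called by covered length numbered 12 in H3K4me1 with 50 kb added, and in H3K4me3 34 with no filter, 35 with centred libraries and 4 with equal list length (0 to 2 without one library). In H3K27ac they numbered 251 with centred libraries, 328 with 50 kb added, 0 with the replicate block (2542 at an unadjusted p under 0.05) and 0 to 35 without one library. The replicate block changed no other call of covered length, and no member was called under any alternative. The H3K27me3 difference over NTF3 reversed, to -0.33 with centred libraries and -0.25 at a q of 0.001 or less (limma, log2 scale), and its body was covered whole in 3 of 6 libraries. Without both H3K27me3 libraries numbered 2, chosen after seeing the data, 0 genes were called and the median of all genes was 0.05. The cause of these changes was not tested. Of 539 alternative values, 463 kept their call or stayed within 1.5 times.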
